A study of Mus musculus with 4 samples.

Results

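The aminoacyl-tRNA synthetases are the enzymes that load each amino acid onto its transfer RNA. The group described here holds 39 genes chosen by symbol from a deposited table of 23482 mouse genes: 20 cytosolic synthetases, 16 mitochondrial synthetases and 3 partners, namely the tRNA exporter Xpot and the scaffold proteins Aimp1 and Aimp2. A symbol that ends in 2, other than Aimp2, was taken as mitochondrial, and all 39 symbols were found. RNA-seq was made from quadriceps, a hindlimb muscle, of FVB/N mice aged 6 to 8 weeks. One group is control muscle without the transgene (2 libraries), and the other is muscle that overexpresses Thbs1 (2 libraries). Thbs1 encodes the secreted matricellular protein thrombospondin-1. The comparison asks how transcript levels in skeletal muscle differ between animals with and without that transgene. The promoter that drives the transgene, the number of transgenic lines and whether each library is 1 animal or a pool are not given in the sources used here. The p-values therefore measure the spread between these libraries, which may be technical.

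Each cytosolic synthetase serves the ribosomes of the cytosol, and a separate nuclear-encoded set is imported to charge the tRNAs of the mitochondrion. Several cytosolic enzymes are held in the multisynthetase complex around the scaffolds Aimp1, Aimp2 and Eef1e1, while the others are free or form small assemblies. Gars and Kars each encode both a cytosolic and a mitochondrial form, and mitochondrial glutaminyl-tRNA is made by an amidotransferase rather than by a synthetase. Many cytosolic synthetase genes are known targets of ATF4, the transcription factor of the integrated stress response, which is induced when amino acids are short or the endoplasmic reticulum is stressed.

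The libraries held 18815221 to 20053685 reads in genes. Thbs1 was at 8.61 and 12.2 RPKM (reads per kilobase of gene model per 1e+06 reads in genes) in control muscle and at 12900 and 15411 RPKM with the transgene, where it took 12% and 14.4% of the reads. That share lowers the RPKM of every other gene in transgenic muscle, so the scaling of the libraries sets the sign of small differences. The median log2 fold change of the 10015 genes tested was 0.10 in RPKM as deposited, -0.04 with median-of-ratios scaling and 0.26 with Thbs1 left out of the library size, and list medians are therefore also given relative to it. Differences were tested with limma on log2(RPKM + 1), with Benjamini-Hochberg adjustment over all genes tested and a threshold of 0.05. Of 9 skeletal muscle fibre markers it called 0 at 0.05, and 5 had an unadjusted p under 0.05, where 27.9% of all tested genes did. Of these 5, Ckm, Ttn, Myh4 and Tnnt3 were lower in both transgenic libraries. Myh1 was higher in both, at 803 and 839 RPKM in control muscle and 1064 and 1249 RPKM in transgenic muscle. At an adjusted p under 0.1, 3 of the 9 fell (4.01% of all genes did), and 1 fell with limma-voom (4.68% of all). An adjusted p under 0.1 was held by 4 of the 9 in the authors' deposited table, and by 9.2% of all its tested genes. The summed level of the 9 was 31649 and 34296 RPKM in control muscle and 20422 and 23621 RPKM in transgenic muscle. Of 10 macrophage markers 8 rose by limma, where 6.25% of all tested genes rose, and 1 of the 8, Cd68, met the filter in transgenic muscle only. The summed level of the 10 was 53.6 and 84.1 RPKM in control muscle against 244 and 270 RPKM, with no marker at 0 in any library. Leaving out control library 2 left 1 called gene of all tested and 0 of these markers. The 4 adipocyte markers summed to 97.7 RPKM in transgenic library 1 and to 6.93 to 7.12 RPKM in the other libraries, and the 6 fibro-adipogenic markers to 170 RPKM in control library 2 and to 336 to 419 RPKM in the others. In bulk muscle, fewer cells of a type and less RNA per cell cannot be told apart. The part of cell composition in the results on synthetases was not tested.

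Of the 38 members tested 1 changed, the scaffold gene Aimp2, which fell, by the same limma test. Across all tested genes 7.47% changed, 6.25% upward and 1.22% downward. Of the 20 cytosolic synthetases 0 rose and 0 fell. Adjusted p ran from 0.0682 to 0.818 over the 20 genes, and 9 of them had an unadjusted p under 0.05, where 27.9% of all tested genes did. None of the 20 has an adjusted p under 0.1 in the authors' deposited table, a threshold that 9.2% of its tested genes pass. Log2 fold changes were positive for 19 of 20 in RPKM as deposited, for 14 of 20 with median-of-ratios scaling and for 20 of 20 with Thbs1 left out of the library size, while 61.0% of all tested genes were positive in RPKM as deposited. Their median was 0.30, or 0.20 above the median of all genes, and it stood 0.18 and 0.22 above it under those other scalings. The RPKM as deposited was higher in both transgenic libraries than in both controls for 15 of the 20 and lower in both for 1, against 38.4% and 19.7% of all tested genes. These counts also depend on the scaling, since some groups lie close together, and they were not made under the other scalings. The 95% interval of each of the 20 fold changes lay inside a 2-fold change in either direction on the log2(RPKM + 1) scale, so smaller differences are not excluded by these data.

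**Figure D1:**
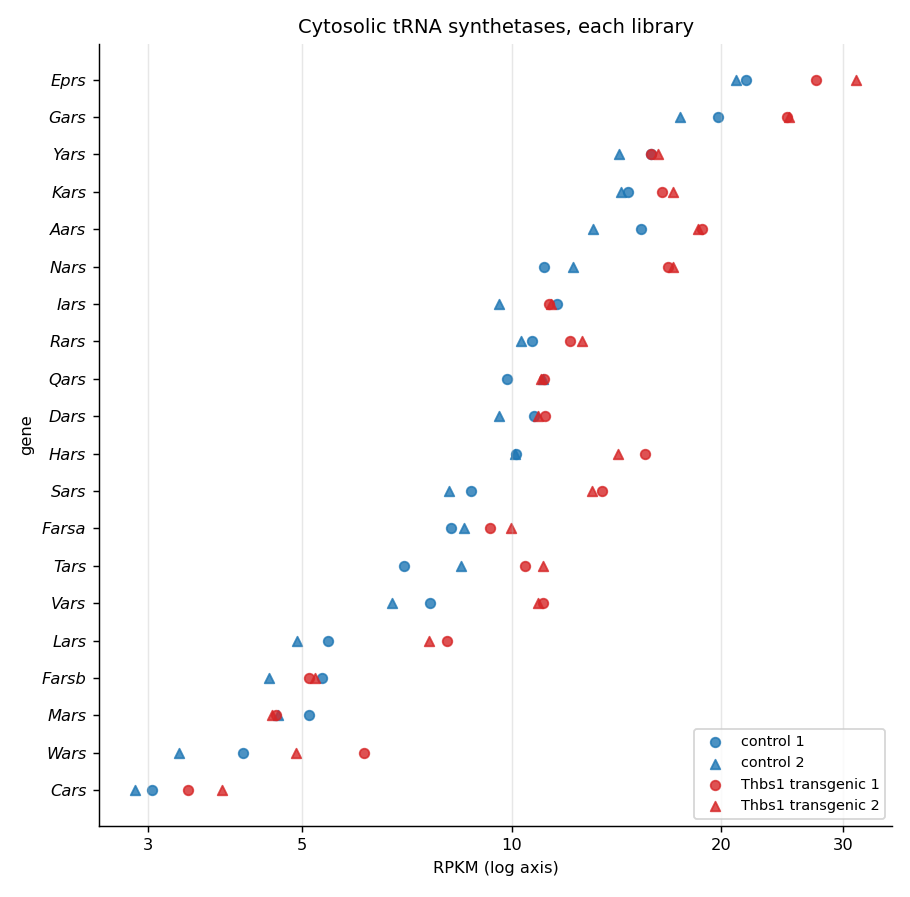
RPKM (horizontal log axis) of the 20 cytosolic synthetases in each of the 4 libraries, ordered by the mean of the controls (blue, 2 libraries; red, 2 Thbs1 transgenic libraries). In RPKM as deposited, both red symbols lie to the right of both blue ones for 15 genes, by less than 2-fold in the group means. For Mars both lie to the left, and 0 of the 20 genes passed the test.

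Sars, which charges serine, had the largest difference of the cytosolic set, at 8.75 and 8.12 RPKM in control muscle and 13.5 and 13.1 RPKM in transgenic muscle. The groups did not overlap, and the ratio of the means was 1.57 (log2 fold change 0.60, SE 0.14, n = 2 per group, limma adjusted p = 0.0682). Vars, for valine, was at 7.63 and 6.74 RPKM in control muscle and 11.1 and 10.9 in transgenic muscle (log2 fold change 0.55, SE 0.15, limma adjusted p = 0.0841). Both genes were high in each transgenic library and low in each control, and the libraries of a group lay close together. Hars, for histidine, went from 10.1 and 10.1 to 15.6 and 14.2 RPKM, and its limma adjusted p was 0.0925. Nars, the asparagine enzyme, was at 11.1 and 12.2 RPKM in control muscle and 16.8 and 17.1 RPKM in transgenic muscle, with a limma adjusted p of 0.0993. Lars, which charges leucine and also signals leucine levels to mTORC1, was at 5.44 and 4.92 RPKM against 8.08 and 7.62 RPKM, with a limma adjusted p of 0.0903. These 5 genes, with log2 fold changes of 0.50 to 0.60, are the ones that passed at an adjusted p under 0.1, where 13.0% of all tested genes rose. The same 5 were those that rose at 0.05 with Thbs1 left out of the library size (limma adjusted p of 0.0283 to 0.0375), a setting in which 14.6% of all tested genes rose; with median-of-ratios scaling 0 of the 20 did, against 5.0% of all.

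The free enzymes of the cytosol, 12 genes outside the multisynthetase complex, had log2 fold changes of 0.06 to 0.60 with a median of 0.42, or 0.32 above that of all genes. Wars, for tryptophan, which is interferon-inducible in human cells, was at 4.12 and 3.32 RPKM in control muscle and 6.14 and 4.90 RPKM in transgenic muscle. Tars, for threonine, was at 7.0 and 8.47 RPKM against 10.5 and 11.1 RPKM. Both were higher in each transgenic library, with log2 fold changes of 0.47 and 0.44 and limma adjusted p of 0.166 and 0.154. Gars, the glycine enzyme, went from 19.8 and 17.5 to 24.9 and 25.1 RPKM (log2 fold change 0.41). Aars, for alanine, was at 15.3 and 13.1 RPKM in control muscle and 18.8 and 18.5 RPKM in transgenic muscle (log2 fold change 0.37). Groups separated for these genes too, and the controls differed from each other by more than the transgenic libraries did for Tars, Gars and Aars but not for Wars. Of the annotated exonic bases of Aars, 14.3% are shared with Exosc6 on the same strand. Exosc6 was at 1.75 and 2.17 RPKM in control muscle and 3.41 and 2.53 RPKM in transgenic muscle. Cars, the cysteine enzyme, was the lowest of the set at 3.04 and 2.87 RPKM in control muscle and 3.43 and 3.84 RPKM in transgenic muscle. The subunits of the phenylalanine enzyme, Farsa and Farsb, were at 8.17 and 8.54 against 9.32 and 9.98 RPKM and at 5.34 and 4.48 against 5.11 and 5.22 RPKM. Farsb overlapped between groups, as did Yars, for tyrosine, at 15.8 and 14.3 RPKM against 15.8 and 16.2 RPKM. Log2 fold changes of Cars, Farsa, Farsb and Yars were 0.23, 0.19, 0.06 and 0.09, and those of Farsb and Yars were negative with median-of-ratios scaling.

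The synthetases of the multisynthetase complex, 8 genes, had log2 fold changes of -0.08 to 0.52 with a median of 0.15, or 0.05 above that of all genes. After Lars, the largest was that of Eprs, a bifunctional enzyme for glutamate and proline, at 21.7 and 21.0 RPKM in control muscle and 27.4 and 31.3 RPKM in transgenic muscle (log2 fold change 0.44, SE 0.15, limma adjusted p = 0.147). Eprs was the highest of the cytosolic set in every library. Rars, for arginine, went from 10.7 and 10.3 to 12.1 and 12.6 RPKM, and Kars, for lysine, from 14.7 and 14.4 to 16.5 and 17.1 RPKM. Dars, the aspartate enzyme, was at 10.8 and 9.59 RPKM against 11.2 and 10.9 RPKM. These 3 separated by small margins in RPKM as deposited, with log2 fold changes of 0.22, 0.19 and 0.11. Iars, for isoleucine, overlapped at 11.6 and 9.61 against 11.3 and 11.4 RPKM, and so did Qars, for glutamine, at 9.85 and 11.1 against 11.1 and 11 RPKM. Mars, the methionine enzyme, was the single cytosolic gene lower in both transgenic libraries, at 5.11 and 4.62 RPKM against 4.58 and 4.52 RPKM (log2 fold change -0.08, limma adjusted p = 0.76). Dars, Iars and Qars also had negative log2 fold changes with median-of-ratios scaling, and Mars had a positive one with Thbs1 left out of the library size. The exons of Mars share 68 bases with those of Ddit3, which encodes CHOP, on the opposite strand, and the sources used here do not say whether the libraries kept strand. The difference between free and complex-bound enzymes was not tested.

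Promoters were searched for the element that ATF4 binds, because these genes are known ATF4 targets. RefSeq promoter windows, from 250 bases before to 50 bases after an annotated start (GRCm38.p6), were matched for 30 of the 39 genes. The letters TGATGNAA, the core of the C/EBP-ATF response element, were sought on both strands. They occurred in 5 of 13 cytosolic synthetase promoters (38.5%), namely those of Aars, Gars, Iars, Tars and Yars, in 0 of 14 mitochondrial ones and in 0 of the 3 partners, while 4.51% of 27025 genes with such a window hold them. The stretch from 150 bases before to 20 bases after the start is shown for these 5 genes, since they are the members with the element, 5′ to 3′ on the strand of the gene with each match in capitals. TTGCATCA and TTTCATCA are matches on the other strand.
Aars: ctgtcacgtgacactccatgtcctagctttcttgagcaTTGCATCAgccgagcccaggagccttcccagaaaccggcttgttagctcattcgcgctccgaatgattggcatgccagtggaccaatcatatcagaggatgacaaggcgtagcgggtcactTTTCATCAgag
Gars: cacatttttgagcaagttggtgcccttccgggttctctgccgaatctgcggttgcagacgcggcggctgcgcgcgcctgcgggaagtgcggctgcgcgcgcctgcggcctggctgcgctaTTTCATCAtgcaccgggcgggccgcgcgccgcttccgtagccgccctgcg
Iars: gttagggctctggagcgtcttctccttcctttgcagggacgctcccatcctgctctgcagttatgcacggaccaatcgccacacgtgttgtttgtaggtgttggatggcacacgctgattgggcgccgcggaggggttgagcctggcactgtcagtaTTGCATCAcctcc
Tars: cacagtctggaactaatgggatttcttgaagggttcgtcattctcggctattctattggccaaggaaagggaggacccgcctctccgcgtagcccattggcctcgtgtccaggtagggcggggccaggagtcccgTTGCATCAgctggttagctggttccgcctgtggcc
Yars: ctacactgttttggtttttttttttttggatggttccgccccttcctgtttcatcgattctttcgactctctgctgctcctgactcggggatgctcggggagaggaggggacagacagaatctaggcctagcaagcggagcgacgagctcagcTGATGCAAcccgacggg
They lie at chr8:111033692-111033861 (forward strand), chr6:55037851-55038020 (forward strand), chr13:49681980-49682149 (forward strand), chr15:11399639-11399808 (reverse strand) and chr4:129189753-129189922 (forward strand). Aars holds the element at 2 places, and the others at 1 in this stretch. The log2 fold changes of these 5 genes were 0.37, 0.41, 0.09, 0.44 and 0.09, so genes with the element were found both among the larger differences and among those near 0. Sars, with the largest difference, has no match in its window, and Vars, Lars, Hars and Nars, which follow it, were not among the genes matched, nor were Cars, Rars and Wars. The Myc-type E-box CACGTG was present in 4 of 13 cytosolic promoters, 1 of 14 mitochondrial ones and 8.09% of all, and the endoplasmic reticulum stress element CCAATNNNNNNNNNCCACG in 0 of the 30 genes and 0.137% of all. No match of one motif overlapped a match of another in the members. A match describes the letters in the window and does not show that a factor binds there.

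Of the 16 mitochondrial synthetases 15 passed the filter of at least 1 RPKM in at least 2 libraries, and 0 of these rose or fell. Adjusted p by limma ran from 0.186 to 0.982, and 0 of the 15 had an unadjusted p under 0.05, where 27.9% of all tested genes did. Their log2 fold changes had a median of -0.04, or 0.14 below that of all genes, and it stood 0.11 below it with median-of-ratios scaling and 0.15 below it with Thbs1 left out of the library size. Differences were negative for 9 of 15 in RPKM as deposited, for 13 of 15 with median-of-ratios scaling and for 3 of 15 with Thbs1 left out of the library size, so the sign of most of them is set by the scaling. The RPKM was higher in both transgenic libraries for 1 gene, lower in both for 3 and overlapping for 11. Of all tested genes 38.4% were higher in both and 19.7% lower in both. In RPKM as deposited the count of 3 is thus near the share of all genes, and the count of 1 is below it. These counts depend on the scaling and were not made under the other scalings. For 14 of the 15 the 95% interval lay inside a 2-fold change in either direction, the exception being Lars2.

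Lars2, the leucine enzyme of the mitochondrion, stood far above the rest at 135 and 399 RPKM in control muscle and 119 and 55.7 RPKM in transgenic muscle. Its lowest control was above its highest transgenic library by a small margin, while the controls differed more from each other than the groups did at their nearest. By limma the log2 fold change of -1.50 had an SE of 0.60, a 95% interval of -3.03 to 0.03 and an adjusted p of 0.186. It passed the test only without transgenic library 1 (log2 fold change -2.04, limma adjusted p = 0.0397, where 1.67% of all tested genes fell, against adjusted p of 0.0742 to 0.479 without each of the others), and without control library 2 it was -0.72. Lars2 took 7273 to 49531 reads per library, against 38 to 1979 for any other mitochondrial synthetase. Values per gene do not show where in the gene these reads lie. Whether all of them come from the Lars2 transcript was not tested.

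**Figure D2:**
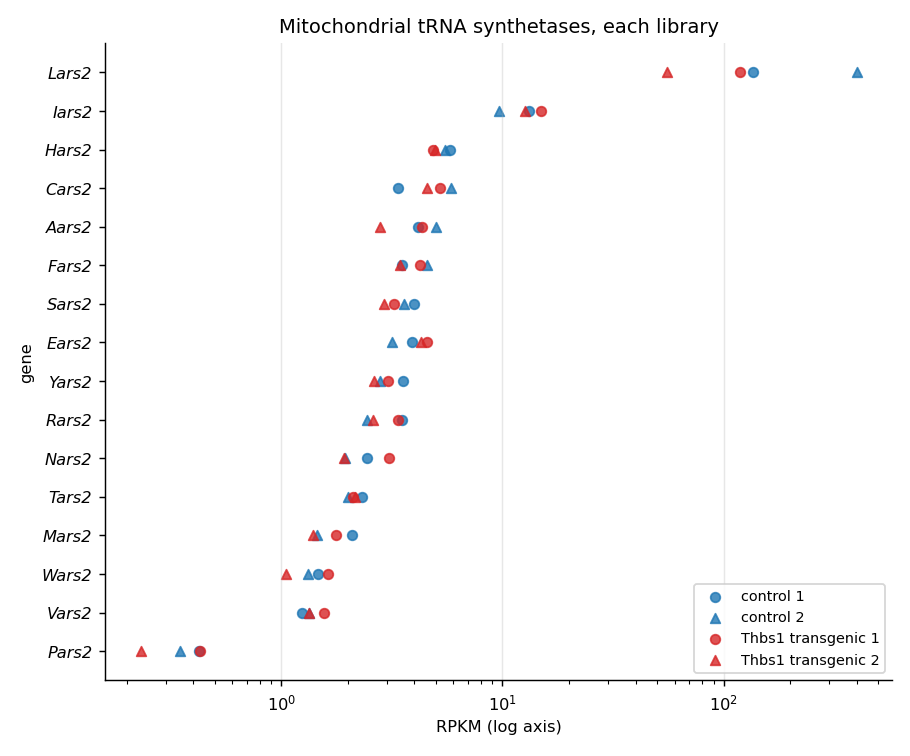
RPKM (horizontal log axis) of the 16 mitochondrial synthetases in each of the 4 libraries, ordered by the mean of the controls. Lars2 stands apart at 55.7 to 399 RPKM, the other genes lie between 0.232 and 15 RPKM, and red and blue symbols overlap for 11 of the 15 genes tested.

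The 3 genes with lower RPKM in both transgenic libraries were Lars2, Sars2 and Hars2. Sars2, for serine, was at 3.97 and 3.6 RPKM in control muscle and 3.22 and 2.92 RPKM in transgenic muscle (log2 fold change -0.23, SE 0.14, limma adjusted p = 0.35). Hars2, for histidine, was at 5.76 and 5.50 RPKM against 4.87 and 4.94 RPKM (log2 fold change -0.17). With Thbs1 left out of the library size, the log2 fold change of Hars2 was 0.01 and that of Sars2 was -0.08. Hars and Hars2 lie head to head on opposite strands and share 195 exonic bases, whose reads cannot be assigned without strand. Ears2, the glutamate enzyme, was the gene with higher RPKM in both, at 3.89 and 3.17 against 4.55 and 4.26 RPKM (log2 fold change 0.26, limma adjusted p = 0.339). Iars2, for isoleucine, ranked second in level at 13.2 and 9.64 RPKM in control muscle and 15 and 12.6 RPKM in transgenic muscle, and 22.9% of its annotated exonic bases are shared with Rab3gap2 on the opposite strand.

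The remaining mitochondrial genes overlapped between groups. Aars2, for alanine, was at 4.15 and 4.99 RPKM against 4.34 and 2.81 RPKM, and Cars2, for cysteine, at 3.36 and 5.86 against 5.20 and 4.57 RPKM. Fars2, for phenylalanine, was at 3.50 and 4.55 RPKM in control muscle and 4.23 and 3.45 RPKM in transgenic muscle. Rars2, for arginine, was at 3.50 and 2.43 against 3.39 and 2.60 RPKM, and Yars2, for tyrosine, at 3.54 and 2.81 against 3.05 and 2.62 RPKM. For Cars2, Fars2, Rars2 and Yars2 the replicates of each group differed by more than the group means did. For Aars2 this held for the transgenic replicates only. Nars2, for asparagine, was at 2.43 and 1.93 against 3.07 and 1.92 RPKM, and Tars2, for threonine, at 2.31 and 2.0 against 2.12 and 2.15 RPKM. Mars2, for methionine, was at 2.10 and 1.45 against 1.76 and 1.39 RPKM. Vars2 and Wars2, for valine and tryptophan, were at 1.24 and 1.33 against 1.57 and 1.33 RPKM and at 1.46 and 1.32 against 1.63 and 1.05 RPKM. Log2 fold changes of these 10 genes were between -0.30 and 0.12. Pars2, for proline, was not tested, at 0.424 and 0.347 RPKM against 0.428 and 0.232 RPKM from 38 to 71 reads.

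**Figure D3:**
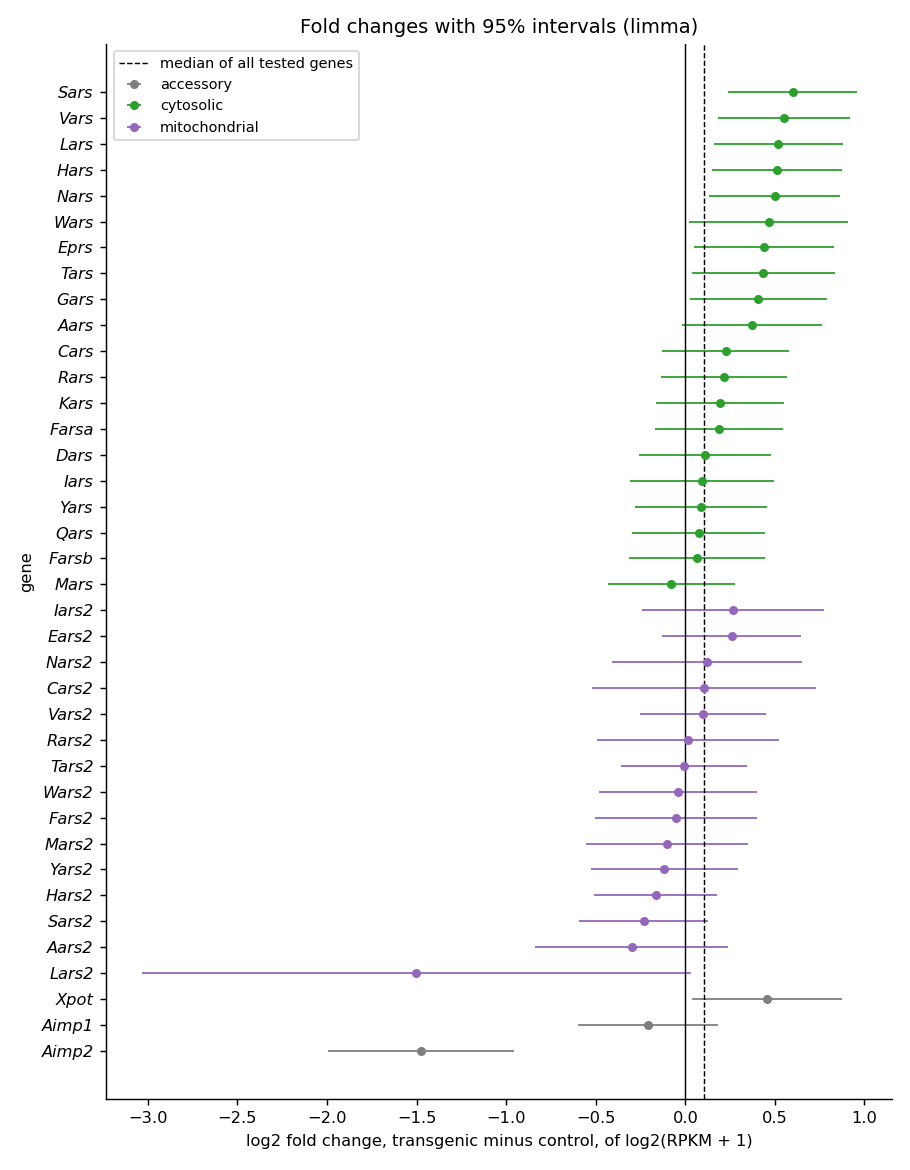
Log2 fold change of log2(RPKM + 1), transgenic minus control, with its 95% interval from limma for the 38 genes tested. Cytosolic genes (green) lie between -0.08 and 0.60 and mitochondrial genes other than Lars2 (purple) between -0.30 and 0.27 in RPKM as deposited; the dashed line marks the median of all tested genes at 0.10, which moves to -0.04 or 0.26 with the other scalings.

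The ratio of a cytosolic to a mitochondrial gene within a library does not depend on how libraries are scaled. The genes form 17 pairs for the same amino acid, in which Eprs and Fars2 each occur more than once. The mean log2 ratio was higher in transgenic than in control muscle for 16 of the 17 pairs, with a median difference of 0.37 and a range of -0.19 to 2.11. The ratios did not overlap between groups for 9 pairs and overlapped for 8, namely those for cysteine, glutamate, isoleucine, methionine, asparagine and arginine and both for phenylalanine. Among the 9 is Eprs over Pars2, where Pars2 was not tested and had 38 to 71 reads. Lars over Lars2, with the difference of 2.11, is also among them, and Lars2 was at 135 and 399 RPKM in the controls. How often ratios of other genes are higher or separate was not measured, so the counts of 16 and 9 have no share to stand beside. The ratios come from the same values as the fold changes above, so these counts are not separate evidence. With 2 libraries against 2, an exact permutation test of a single ratio cannot give a two-sided p below 0.333, so the ratios are given as a description, with no test. Sars over Sars2 was 2.20 and 2.26 in control muscle and 4.19 and 4.47 in transgenic muscle, a near doubling that was alike in both libraries. Hars over Hars2 was 1.76 and 1.84 against 3.20 and 2.88. Aars over Aars2 was 3.70 and 2.62 against 4.32 and 6.60. In these 3 pairs the transgenic ratios were above both controls, with the least scatter for serine and histidine. Wars over Wars2, at 2.82 and 2.51 against 3.77 and 4.66, and Vars over Vars2, at 6.15 and 5.05 against 7.08 and 8.17, did not overlap either. Iars over Iars2, at 0.884 and 0.996 against 0.755 and 0.901, was the pair with a lower mean ratio, and its groups overlapped.

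**Figure D4:**
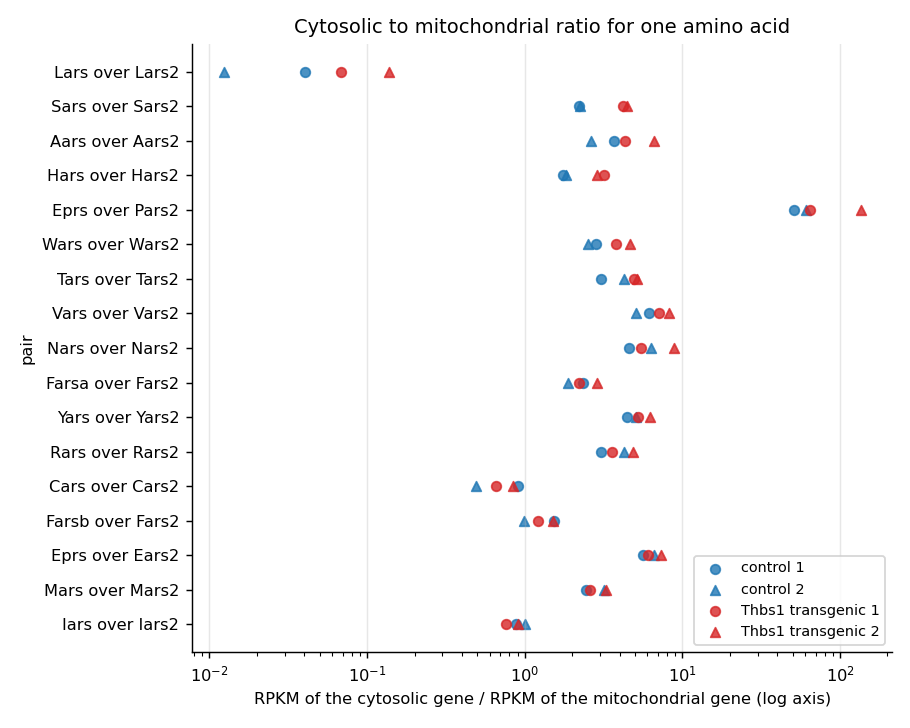
Ratio of the RPKM of the cytosolic gene to that of the mitochondrial gene for the same amino acid (horizontal log axis), in each of the 4 libraries, ordered by the difference between groups. The serine and histidine pairs show the least scatter within a group, at 2.20 and 2.26 against 4.19 and 4.47 for serine, and the ratios of 8 of the 17 pairs overlap between groups.

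Summed over the 20 cytosolic genes, the level was 206 and 195 RPKM in control muscle and 253 and 257 RPKM in transgenic muscle. Over 15 mitochondrial genes without Lars2 it was 54.8 and 50.9 RPKM against 58.4 and 48.9 RPKM. In RPKM as deposited the cytosolic sum was thus higher in each transgenic library while the mitochondrial sums overlapped. Each sum depends on the scaling of the libraries, and sums were not made under the other scalings. The ratio of the sums, which does not depend on it, was 3.76 and 3.83 in control muscle and 4.33 and 5.25 in transgenic muscle. With Lars2 included the ratio was 1.09 and 0.434 against 1.43 and 2.45, so that gene decides both the level and the spread of the mitochondrial sum. Levels of different genes depend on the authors' gene model lengths, which ran from 0.373 to 4.70 times the exonic length in GENCODE M21 over the 39 genes, with a median of 1.32.

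Aimp2 was the single member that passed the test, and it fell. It encodes the scaffold of the multisynthetase complex also known as p38, and stood at 40.6 and 52.3 RPKM in control muscle and at 14.2 and 17.9 RPKM in transgenic muscle, from 3197, 3994, 1154 and 1437 reads. Both transgenic libraries were far below both controls, with means of 46.4 ± 8.24 and 16.0 ± 2.61 RPKM (SD, n = 2), or 2.90 times as much in control muscle. By limma the log2 fold change of -1.48 had an SE of 0.20, a 95% interval of -2.0 to -0.96 and an adjusted p of 0.0233, and it was negative under all 3 scalings. Its adjusted p in the authors' deposited table is 0.00125, and it is the single member under 0.1 there. The call was lost without control library 2 (log2 fold change -1.30, limma adjusted p = 0.0955), where 0.0% of all tested genes fell and 1 gene passed, and with no filter on low values (limma adjusted p = 0.0636), where 0.0619% fell. The call was kept with the replicate number as a block, where 0.639% of genes fell. Over all alternatives the adjusted p ran from 0.00452 to 0.0955.

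Aimp1, the partner scaffold also secreted as a cytokine, was at 29.7 and 33.4 RPKM in control muscle and 26.4 and 27.9 RPKM in transgenic muscle (log2 fold change -0.21, SE 0.15, limma adjusted p = 0.439). Aimp2 was thus at 1.37 and 1.56 times the level of Aimp1 in control muscle and at 0.538 and 0.640 times in transgenic muscle. The gene model is 0.373 times the annotated exonic length for Aimp1 and 2.46 times for Aimp2. Whether Aimp2 lies above or below Aimp1 depends on these models, while the difference in the ratio between groups does not. Against Kars, which binds Aimp2 directly in the complex, the ratio was 2.76 and 3.64 in control muscle and 0.860 and 1.05 in transgenic muscle. For all 8 complex synthetases and Aimp1 the level of Aimp2 relative to them was lower in both transgenic libraries. These ratios share Aimp2, the called member, as numerator, so they restate its fall and are not separate observations. Xpot, the exportin that carries tRNA out of the nucleus, was at 4.82 and 4.72 RPKM against 7.79 and 6.11 RPKM (log2 fold change 0.45, SE 0.16, limma adjusted p = 0.155), and its groups did not overlap.

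**Figure D5:**
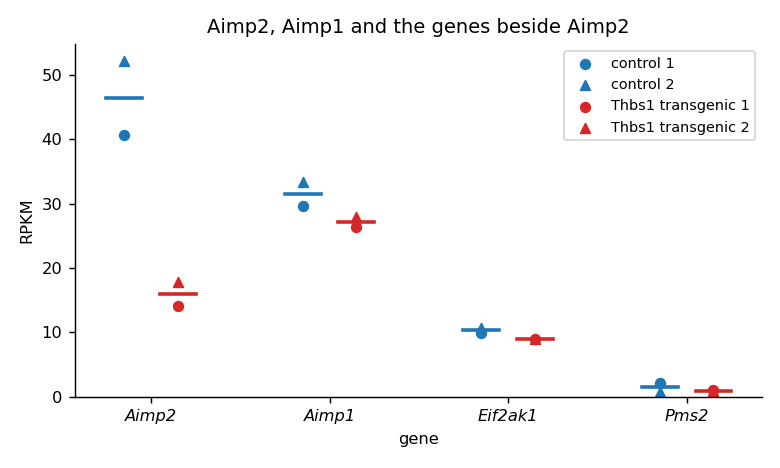
RPKM of Aimp2, of its partner Aimp1 and of the genes on either side of Aimp2, Eif2ak1 and Pms2, in each library (blue, 2 controls; red, 2 Thbs1 transgenic libraries; bars, group means). Aimp2 goes from 40.6 and 52.3 to 14.2 and 17.9 RPKM, while Eif2ak1 lies between 8.93 and 10.7 RPKM in all 4 libraries.

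The neighbours of Aimp2, chosen after its values were seen, bear on its reads. In GENCODE M21 (GRCm38) Aimp2 lies on the reverse strand at chr5:143902704-143909847, and its 3′ end shares 487 exonic bases, 29.4% of its annotated exonic bases, with Eif2ak1 on the forward strand. Eif2ak1, a kinase that phosphorylates eIF2 when haem is short, was at 9.91 and 10.7 RPKM in control muscle and 9.03 and 8.93 RPKM in transgenic muscle (log2 fold change -0.18, limma adjusted p = 0.469). On the other side Pms2, a mismatch repair gene, starts 116 bases away on the forward strand, and it was at 2.09 and 0.795 RPKM against 1.01 and 0.833 RPKM (limma adjusted p = 0.545). Aimp2 was 4.10 and 4.88 times as high as Eif2ak1 in control muscle and 1.57 and 2.0 times in transgenic muscle, so these ratios did not overlap. Relative to Pms2 they did, at 19.4 and 65.7 against 14.0 and 21.4. The gene model used for Aimp2 spans 4062 bases against 1654 annotated exonic bases. The start of Aimp2, which faces Pms2, is shown as the region of the single called member, at chr5:143909820-143909989 (reverse strand), with no match to the ATF4 element and hence no capitals.
Aimp2: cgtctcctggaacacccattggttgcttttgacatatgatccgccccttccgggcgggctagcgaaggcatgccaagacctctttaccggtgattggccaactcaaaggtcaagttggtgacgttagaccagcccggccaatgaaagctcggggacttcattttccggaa

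By limma, 0 of 5 further mitochondrial genes of aminoacylation and 0 of 7 further cytosolic ones changed. In these lists 1 and 2 had an unadjusted p under 0.05, where 27.9% of all tested genes did. The median log2 fold change was -0.05 in each list, or 0.15 below that of all genes. In each list 1 gene fell with median-of-ratios scaling, where 2.47% of all genes fell, and 1 with limma-voom (4.68% of all). Tarsl2, a second cytosolic threonyl-tRNA synthetase, was at 19.2 and 16.3 RPKM in control muscle and 12.1 and 10.7 RPKM in transgenic muscle (log2 fold change -0.60, limma adjusted p = 0.089), a direction opposite to that of Tars. Its adjusted p in the authors' deposited table is 0.0189, and that of Gatc, a subunit of the mitochondrial amidotransferase, is 0.0685. Eef1e1, the remaining scaffold of the complex, was at 3.06 and 4.48 against 3.47 and 3.64 RPKM. Tarsl2, Gatc and Eef1e1 were named after their values were seen. Of 14 genes of tRNA export, splicing and ligation 0 passed, with a median of 0.15.

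The wider pathway was measured by lists chosen with results of these data already known. Of 13 tested genes of the ATF4 pathway 4 rose and 0 fell by limma, against 6.25% and 1.22% of all genes, and the median log2 fold change was 0.79, or 0.69 above that of all genes. Asns, asparagine synthetase, went from 0.485 and 0.397 to 7.81 and 6.24 RPKM, Trib3, a pseudokinase, from 0.281 and 0.273 to 4.01 and 3.80 RPKM, and Nupr1, a stress-induced nuclear protein, from 4.73 and 5.12 to 15.8 and 17.8 RPKM. Psat1, an enzyme of serine synthesis named after its values were seen, was at 0.455 and 0.318 against 3.98 and 3.12 RPKM. Asns, Trib3 and Psat1, 3 of the 4 called, were below 1 RPKM in both controls and met the filter in transgenic muscle only, so that they had to differ and their count supports nothing. Eif2ak3, not called, also met the filter there only, at 0.987 and 0.759 against 1.89 and 1.80 RPKM. Eif2ak4, at 0.367 and 0.454 against 0.274 and 0.259 RPKM, was left out by the filter. Both were named after their values were seen. The median of the list includes genes that met the filter in transgenic muscle only, so it supports nothing either. With no filter it was 0.70. The list had 0 calls without control library 2 and 1 without transgenic library 1. Among 6 elongation factors of the cytosol, with a median log2 fold change 0.06 below that of all genes, 1 rose: Eef1a1, which brings charged tRNA to the ribosome and is the form of non-muscle tissue, was at 169 and 125 RPKM in control muscle and 486 and 539 RPKM in transgenic muscle (log2 fold change 1.81, limma adjusted p = 0.0175). That call was lost with no filter and without control library 2. Eef1a2, the form of adult muscle, named after its values were seen, overlapped at 364 and 385 against 311 and 423 RPKM. Of 11 initiation genes (subunits of eIF2 and eIF2B with Eif1, Eif5 and Eif4ebp1), 10 mitochondrial translation factors and 78 mitochondrial ribosomal proteins limma called 0. In these lists 1, 0 and 8 had an unadjusted p under 0.05, where 27.9% of all tested genes did. Their median log2 fold changes were 0.05, -0.06 and -0.06. Eif4ebp1, which encodes a repressor of cap-dependent translation and was named after its values were seen, had a log2 fold change of 0.85 (limma adjusted p = 0.0505), and it rose with Thbs1 left out of the library size.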

How the data were processed

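RNA-seq of quadriceps gave 2 control and 2 Thbs1 transgenic libraries, grouped by sample title. Per the submitters' processing notes, bcl2fastq, TopHat, edgeR and the build mm10 were used, with no versions. The per-library values that the authors deposited were read as RPKM from their values, because the columns carry no unit name. Base means in the deposited table are signal values, reads over a size factor averaged within a group. The authors' deposited table also holds a p-value and an adjusted p-value per gene. RPKM and base means together gave whole reads for all values within 1e-05 of a read, and these served for depth, scaling and limma-voom.

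Differences were tested with limma 3.58.1 (R 4.3.3, mean-variance trend, two-sided, no covariates) on log2(RPKM + 1), which understates changes of low genes, over the 10015 genes that reached 1 RPKM in 2 or more libraries. P-values were adjusted by Benjamini-Hochberg with a threshold of 0.05. A fold change is transgenic minus control. The test was tried on simulated reads. The labels name no batch. Members and lists were chosen with earlier results of these data known, and all 39 members are named, with up to 3 called genes of each other list. Alternatives changed the pseudocount, filter, scaling, model, threshold, block and libraries. Promoter sequences are from RefSeq (GRCm38.p6) and exons from GENCODE M21. Figures were drawn with matplotlib 3.10.9, and other steps ran in Python 3.11.15 (pandas 2.3.3).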

Additional observations from a re-analysis of the deposited data

How the results depend on the processing

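Changed genes numbered 748, against 146 with no filter, 1561 with Thbs1 left out of the library size, 1705 at an adjusted p under 0.1, and 1 to 680 without each library, the lowest without control library 2. Cytosolic synthetases that rose numbered 0, against 5 with Thbs1 left out of the library size and 5 at an adjusted p under 0.1. Their median log2 fold change of 0.299 became 0.340 with a pseudocount of 0.1, 0.142 with median-of-ratios scaling, 0.486 with Thbs1 left out of the library size, 0.159 with limma-voom and 0.241 to 0.308 without each library. The mitochondrial median of -0.041 became 0.112 with Thbs1 left out of the library size, -0.241 with limma-voom and -0.157 to 0.064 without each library, and mitochondrial synthetases that fell numbered 0 to 1. Aimp2 kept a negative log2 fold change under every alternative run, at -1.477 with no filter, where its call was lost, and -1.655 to -1.299 without each library. A fit with a replicate block changed 561 genes and Aimp2 stayed called (limma adjusted p = 0.0328), and 0 synthetases were called. Deviations of libraries with the same number correlated at 0.0742 across genes. With 2 libraries per group this cannot show whether they share more than a number, and the labels do not say. Among genes without a call, 9 turned sign with median-of-ratios scaling, 9 with limma-voom and 7 with Thbs1 left out of the library size. A fit without 1 library leaves 1 sample in a group, whose spread is taken from the other group.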
